A study of Mus musculus with 2 samples.

Results

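Described here are 10 proximal microRNA (miRNA) genes of the imprinted Dlk1-Dio3 region, from Mir770 inside the long noncoding RNA gene Meg3 to Mir434 opposite Rtl1. All lie on the plus strand of mouse chromosome 12, upstream of the distal Mir379 cluster, and other miRNA genes lie in the same interval. They were found by symbol among 1973 miRNA genes with counts, and all 10 had a row. Of these 10, the 4 in the coding sequence of Rtl1 on the opposite strand, Mir431, Mir433, Mir127 and Mir434, are called Rtl1-antisense here. Mir770, Mir673, Mir493, Mir337, Mir540 and Mir665 are called Meg3-side. The libraries are small-RNA sequencing of limb tissue from B6NCrl mouse embryos of mixed sex, untreated, on embryonic day 10.5, in 1 group with no genotype, agent or time contrast. Replicate 1 pooled the limbs of 69 embryos and replicate 2 those of 51, so the spread between them is that of separate pools of whole limb tissue.

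As background, genes of the Dlk1-Dio3 region are expressed from 1 parental chromosome: Dlk1, Rtl1 and Dio3 mainly from the paternal one, and Meg3, Rian, Mirg and the miRNAs between them from the maternal one. Rtl1 is a protein-coding gene derived from a retrotransposon, known for its part in the fetal capillaries of the placenta. The miRNAs encoded opposite Rtl1 match its mRNA perfectly and are known in mouse to direct its cleavage. In general a mature miRNA is cut from either arm of a hairpin, and bases 2 to 8 from its 5′ end, the seed, do most of the target pairing.

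The mature sequences below are those of the 4 Rtl1-antisense genes, of Mir337, the most abundant Meg3-side gene, and of Mir493, the gene that differed most between the libraries. They are RefSeq sequences on GRCm38.p6, written 5′ to 3′ with the seed in capitals.
mmu-miR-431-5p: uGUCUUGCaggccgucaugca
mmu-miR-431-3p: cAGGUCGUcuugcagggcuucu
mmu-miR-433-5p: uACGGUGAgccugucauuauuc
mmu-miR-433-3p: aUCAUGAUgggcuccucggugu
mmu-miR-127-5p: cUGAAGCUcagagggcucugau
mmu-miR-127-3p: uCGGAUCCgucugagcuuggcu
mmu-miR-434-5p: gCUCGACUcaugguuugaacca
mmu-miR-434-3p: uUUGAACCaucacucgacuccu
mmu-miR-337-5p: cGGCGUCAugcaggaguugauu
mmu-miR-337-3p: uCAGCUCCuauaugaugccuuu
mmu-miR-493-5p: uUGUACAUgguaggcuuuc
mmu-miR-493-3p: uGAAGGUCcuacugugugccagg

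The table gave a hairpin for 10 of 10 genes, at the same coordinates as the annotation, with 20 mature arms of 19 to 26 bases. The 20 arms had 20 distinct seeds, so no pair of these genes shared a seed. Each mature sequence was found at 1 gene among the 1058 miRNA genes with mature sequences in that table. This bears on the counts, because a read that matches several loci is counted at none of them. Outside the 10 genes, 2 arms shared a seed with another listed miRNA: miR-673-5p with the arm miR-6985-3p, whose gene Mir6985 had 0 counts in both libraries, and miR-540-3p with an arm of a gene not analysed here.

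Complementarity to Rtl1 was complete for every arm of the Rtl1-antisense genes. The reverse complement of 8 of 8 arms was found once each in the GENCODE M21 Rtl1 transcript, and that of 0 of 12 Meg3-side arms. This follows from their position opposite the Rtl1 coding sequence and is a property of the genome, not a measurement of cleavage. The sites for one arm of each of the most abundant genes are shown as they stand in the Rtl1 transcript, 5′ to 3′ in DNA letters, with the bases that pair with the seed in capitals. They lie on the minus strand at chr12:109590459-109590479 for Mir431 and at chr12:109592888-109592909 for Mir127.
Rtl1 site of miR-431-5p: tgcatgacggcctGCAAGACa
Rtl1 site of miR-127-3p: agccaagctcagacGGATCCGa

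The hairpins of Mir431 and Mir127 are shown because these 2 genes had the most counts of the 10. Capitals mark the mature arms, and the counts below are sums over both arms and the rest of the hairpin, since the deposited tables do not separate the arms.
Mir431: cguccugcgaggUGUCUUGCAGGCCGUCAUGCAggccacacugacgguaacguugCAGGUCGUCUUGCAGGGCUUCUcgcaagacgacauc
Mir127: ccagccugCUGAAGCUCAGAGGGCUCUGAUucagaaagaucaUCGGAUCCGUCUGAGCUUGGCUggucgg

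All 10 genes were expressed in the limb bud, at levels that spanned 38.2-fold in replicate 1 and 47.4-fold in replicate 2. Levels are sense counts per 1000000 sense counts in miRNA genes (CPM), and detection required 10 or more sense counts in each library. By that rule 10 of 10 were detected, against 17.6% of all 1973 genes. Their median level was 799 CPM over the mean of both libraries, against 136 CPM for the 348 detected genes of the tables, and each of the 10 lay above that median. Together they held 1.79% of the sense counts in replicate 1 (exact binomial 95% interval 1.77 to 1.80) and 1.20% in replicate 2 (1.19 to 1.21), a mean of 1.50% ± 0.414 (SD, n = 2). The intervals cover counting error alone. With 2 libraries the smallest two-sided p of an exact sign-flip permutation test is 0.5, so no test across libraries is given.

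The sense counts behind the levels were close in both libraries, with 3581672 over all miRNA genes in replicate 1 and 3576482 in replicate 2. The total reads were not as close, at 10064833 and 7218612. Reads given to no gene made up 64.4% and 50.5% of the libraries. The label of limb tissue was set against marker genes. All 6 limb and mesenchyme genes (Mir196b, Mir10b, Mir10a, Mir615, Mir214 and Mir199b) were detected, at 203142 and 190286 CPM in sum, and the summed neural list (3 of 4 analysed genes detected, Mir124a-1, a gene of several copies, at 0) reached 212 and 225 CPM. Other cell types were also seen. The endothelial gene Mir126a had 26707 CPM in replicate 1 and 23683 in replicate 2, and the 4 epithelial genes summed to 11082 and 9683 CPM. The leukocyte list, with 2 of 3 detected, summed to 731 and 611 CPM. In whole tissue, fewer cells of a type and less RNA per cell cannot be told apart.

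**Figure D1:**
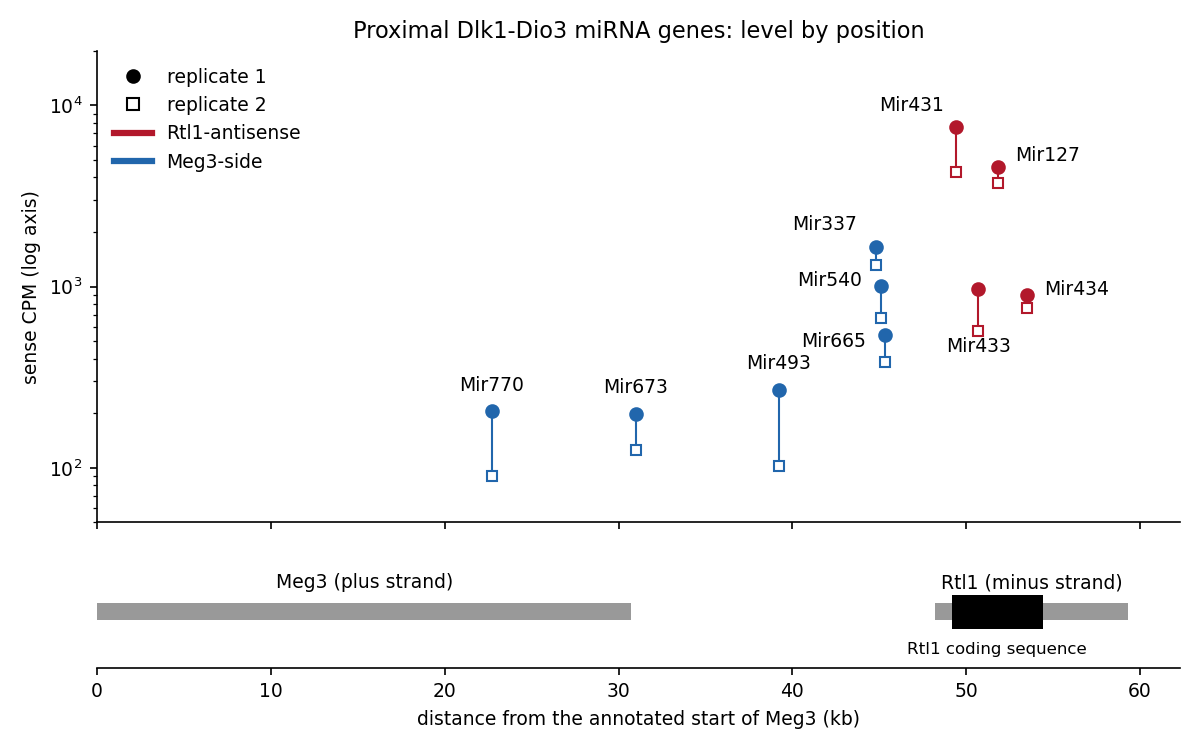
Sense CPM of the 10 genes (log axis) against distance from the annotated start of Meg3 in kb, with filled circles for replicate 1 and open squares for replicate 2, and the GENCODE M21 spans of Meg3 and Rtl1 below. The 3 genes closest to or within Meg3 lie between 90.0 and 270 CPM, and Mir431 and Mir127 opposite the Rtl1 coding sequence lie between 3741 and 7558 CPM.

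Among the Rtl1-antisense genes, Mir431 (chr12:109590447-109590537), known in mouse for a role in muscle satellite cells, was the most abundant. It had 27070 sense counts in replicate 1 and 15273 in replicate 2, or 7558 and 4270 CPM, with a mean of 5914 ± 2325 CPM (SD, n = 2). Mir127 (chr12:109592846-109592915), known in mouse for its part in the development of the placenta through Rtl1, had 16405 and 13380 counts, or 4580 and 3741 CPM, with a mean of 4161 ± 593 CPM (SD, n = 2). Mir431 was above Mir127 in both libraries, by 1.65-fold in replicate 1 and 1.14-fold in replicate 2, but the ranges of the genes over the libraries overlapped. Both ranked high among all genes, Mir431 at 29 and Mir127 at 44 by mean CPM.

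The other Rtl1-antisense genes were several times lower. Mir433 (chr12:109591715-109591838), reported in mouse mesenchymal cells to repress the bone factor Runx2, had 3458 counts in replicate 1 and 2035 in replicate 2, a mean of 767 ± 280 CPM (SD, n = 2). Mir434 (chr12:109594506-109594599) had 3235 and 2714 counts, a mean of 831 ± 102 CPM (SD, n = 2). Their order was not settled, since Mir433 was the higher one in replicate 1 (965 against 903 CPM) and Mir434 in replicate 2 (759 against 569 CPM). Levels therefore alternated along the Rtl1 coding sequence among the Rtl1-antisense genes alone, with Mir431 and Mir127 high and Mir433 and Mir434 low. The alternation did not extend to Mir432, past Mir434 and also opposite this coding sequence, which had 0 sense counts in both libraries.

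The Meg3-side genes fell into a low and a higher group, a division made after seeing the values. The low group is the 3 genes closest to or within Meg3, and the higher group lies closer to Rtl1. Mir770 (chr12:109563692-109563785), which lies in 4 annotated Meg3 transcripts, in an exon of 1 of them and an intron of the others, had 734 counts in replicate 1 and 322 in replicate 2, a mean of 147 ± 81.2 CPM (SD, n = 2). Mir673 (chr12:109571990-109572080), downstream of the annotated end of Meg3, had 709 and 451 counts, a mean of 162 ± 50.8 CPM. Mir493 (chr12:109580233-109580315), studied in human cancer as a repressor of the growth factor receptor gene IGF1R, had 967 and 368 counts, a mean of 186 ± 118 CPM. The ranges of these 3 genes over the libraries overlapped, and their order differed between the libraries.

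Mir337, Mir540 and Mir665 lie within 619 bases of each other, and their levels decreased in the direction of transcription in both libraries. Mir337 (chr12:109585789-109585885) had 5956 counts in replicate 1 and 4716 in replicate 2, a mean of 1491 ± 243 CPM (SD, n = 2). Mir540 (chr12:109586080-109586146), 194 bases further on, had 3587 and 2409 counts, a mean of 838 ± 232 CPM. Mir665 (chr12:109586314-109586407), after another 167 bases, had 1944 and 1373 counts, a mean of 463 ± 112 CPM. The lowest library of Mir337 (1319 CPM) lay above the highest of Mir540 (1001 CPM), and the lowest of Mir540 (674 CPM) lay above the highest of Mir665 (543 CPM). No other annotated gene on the plus strand spans these 3, nor Mir673, Mir493 and the Rtl1-antisense genes, in GENCODE M21, and the length of their primary transcript was not measured.

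Over all 10 genes the order of mean level was Mir431, Mir127, Mir337, Mir540, Mir434, Mir433, Mir665, Mir493, Mir673 and Mir770. Of the 9 pairs of neighbours in this order, 5 kept their order in both libraries and 4 had ranges that did not overlap: Mir127 over Mir337, Mir337 over Mir540, Mir433 over Mir665 and Mir665 over Mir493. A small-RNA read spans a whole mature miRNA, so CPM were not divided by length. Per 100 bases of annotated hairpin the order of mean level was the same for 10 of 10. As a description across these 10 genes, which share the same libraries, log2 mean CPM had a Spearman correlation of 0.65 with distance from the start of Meg3 and of -0.27 with the GC content of the hairpin. These correlations leave out Mir3070a, Mir3070b and Mir432, plus-strand neighbours in or just past this span with few or no counts.

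The comparison of the sides gave a higher summed level to the Rtl1-antisense genes in both libraries. Their 4 genes held 50168 sense counts in replicate 1 and 33402 in replicate 2, against 13897 and 9639 for the 6 Meg3-side genes. That is 1.17% ± 0.330 of all sense counts for the Rtl1-antisense genes and 0.329% ± 0.0838 for the Meg3-side genes (SD, n = 2 each). The ratio of the sums was 3.61-fold in replicate 1, a log2 ratio of 1.85 (1.82 to 1.88), and 3.47-fold in replicate 2, a log2 ratio of 1.79 (1.76 to 1.83). Both values were taken within a library and do not depend on scaling, and they differed by little: the mean log2 ratio was 1.82 ± 0.042 (SD, n = 2). The Rtl1-antisense genes thus made up 78.3% of the counts of the 10 genes in replicate 1 and 77.6% in replicate 2.

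Not every Rtl1-antisense gene was above every Meg3-side gene. In replicate 1 the Rtl1-antisense genes ran from 903 to 7558 CPM and the Meg3-side genes from 198 to 1663 CPM, and in replicate 2 they ran from 569 to 4270 CPM and from 90.0 to 1319 CPM. Mir337 was above Mir433 and Mir434 in both libraries. Mir431 and Mir127 together carried 67.9% of the counts of the 10 genes in replicate 1 and 66.6% in replicate 2. Without that pair, a choice made after seeing the values, the sum of the 2 genes left, Mir433 and Mir434, lay below the sum of the 6 Meg3-side genes, with a mean log2 ratio of -1.04 (-1.05 in replicate 1 and -1.02 in replicate 2). Per gene, against all 6 Meg3-side genes, the direction did not turn. Mir433 and Mir434 averaged 934 CPM in replicate 1 and 664 in replicate 2. The Meg3-side genes averaged 647 and 449 CPM, a mean log2 ratio of 0.55 ± 0.023 (SD, n = 2). Against Mir337, Mir540 and Mir665 alone, also chosen after seeing the values, the direction per gene did turn. These 3 genes summed to 3207 and 2376 CPM, and Mir433 and Mir434 to 1869 and 1328 CPM, so the 3 were higher per gene as well. With all 10 genes, by the mean log2 CPM of each side, which gives every gene equal weight, the difference was 2.46 ± 0.17 (SD, n = 2), and by the median it was 2.70 ± 0.34.

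The division depends on the annotation of Rtl1. In GENCODE M21 the Rtl1 gene spans chr12:109589193-109600330 and holds 4 of the 10 genes, all inside its coding sequence at chr12:109590172-109595403. In RefSeq the span of the gene is 39519 bases (chr12:109564900-109604418) and holds 9 of the 10, all but Mir770. Only the coding sequence was used for the division here, and only the 10 genes were divided. Mir432, also opposite this coding sequence, is not among them and is not part of the comparison of the sides.

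**Figure D2:**
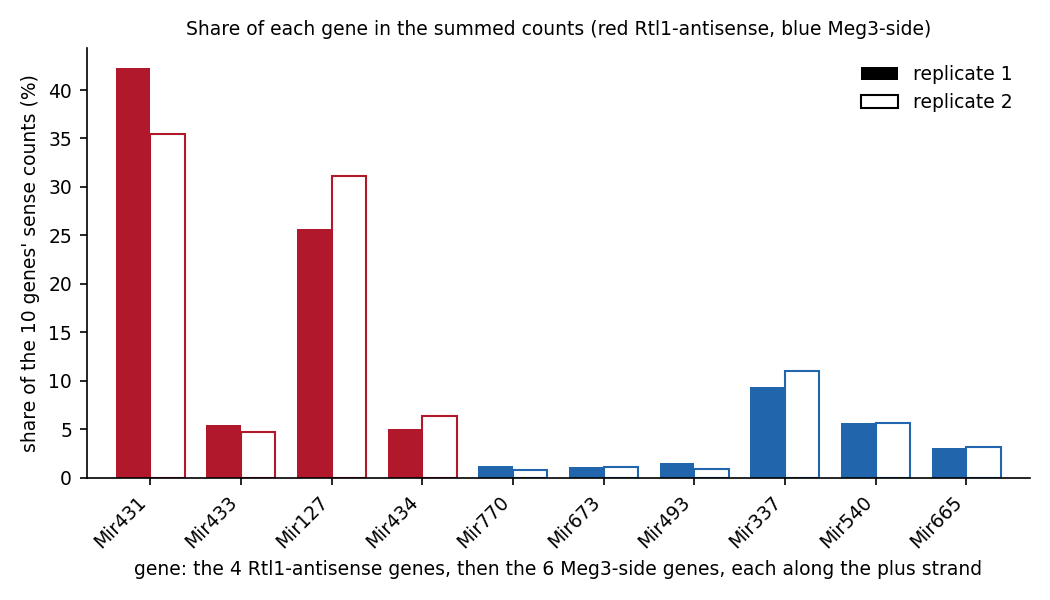
Share of each gene in the summed sense counts of the 10 genes, in percent, with filled bars for replicate 1 and open bars for replicate 2. Mir431 took 42.3% in replicate 1 and 35.5% in replicate 2, Mir127 took 25.6% and 31.1%, and the 6 Meg3-side genes each took 11.0% or less.

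Within the 10 genes, the leading pair shifted in opposite directions between the libraries. Mir431 took 42.3% of their counts in replicate 1 and 35.5% in replicate 2, while Mir127 took 25.6% and 31.1%. Mir540 took 5.60% in each. Mir493 took 1.51% and 0.855%, and Mir770 took 1.15% and 0.748%, larger shifts relative to their size. Mir770, Mir673 and Mir493 together took 3.76% and 2.65%, and Mir337, Mir540 and Mir665 together took 17.9% and 19.7%.

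By CPM, every one of the 10 genes was higher in replicate 1 than in replicate 2, but so were 66.8% of the 250 genes whose mean count reached 100. The log2 ratio, replicate 1 minus replicate 2 with a prior count of 1, had a median of 0.61 over the 10 genes and of 0.27 over the 250. Mir493 had the largest ratio, 1.39 (95% counting interval 1.22 to 1.57), followed by Mir770 at 1.18 (1.00 to 1.38). These 2 genes were more than 2-fold higher in replicate 1, as were 9.6% of the 250 genes, and 0 of the 10 were more than 2-fold higher in replicate 2, as were 1.2% of the 250. Both are among the least abundant of the 10.

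Mir431 and Mir433 had ratios of 0.82 (0.79 to 0.85) and 0.76 (0.68 to 0.84), and Mir127 and Mir434, their neighbours along Rtl1, had ratios of 0.29 (0.26 to 0.33) and 0.25 (0.18 to 0.33). The Meg3-side genes Mir337, Mir540, Mir665 and Mir673 lay between 0.33 and 0.65. The sums of the sides shifted almost alike, by 0.58 (0.56 to 0.60) for the Rtl1-antisense genes and by 0.53 (0.49 to 0.56) for the Meg3-side genes. Scaling with edgeR's TMM factors moved every ratio down by the same amount, to a median of 0.32 for the 10 genes and of -0.018 for the 250, which left the distance of 0.34 between these medians as it was. The direction of Mir434 turned to -0.038 with TMM and to -0.025 with DESeq2 size factors, and 9 of 10 genes stayed higher in replicate 1 under either. Mir493 was then the only one of the 10 over 2-fold. Per 1000000 reads of the whole library, a scaling added after seeing the data, the median of the 10 genes was 0.13 (-0.21 for the 250), and Mir127 at -0.19, Mir337 at -0.14 and Mir434 at -0.23 were lower in replicate 1, so the direction for these genes depends on the scaling. Of the 27 genes over 2-fold among the 250, 24 were higher in replicate 1, and with TMM 14 of 20 were.

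Other values moved between the libraries as well. The unmapped share of reads was 32.3% in replicate 1 and 18.6% in replicate 2, the erythroid markers Mir451a and Mir144 summed to 451 and 254 CPM with both detected, and the muscle marker Mir206 had 26.8 and 97.9 CPM. The muscle list, with 2 of 3 detected, summed to 39.4 and 112 CPM, and its member Mir208a went the other way, at 11.4 and 6.71 CPM. Their part in the ratios of the 10 genes was not tested. The spread between the libraries over 348 detected genes, as edgeR's biological coefficient of variation, was 0.303 with TMM factors and 0.336 with library totals.

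**Figure D3:**
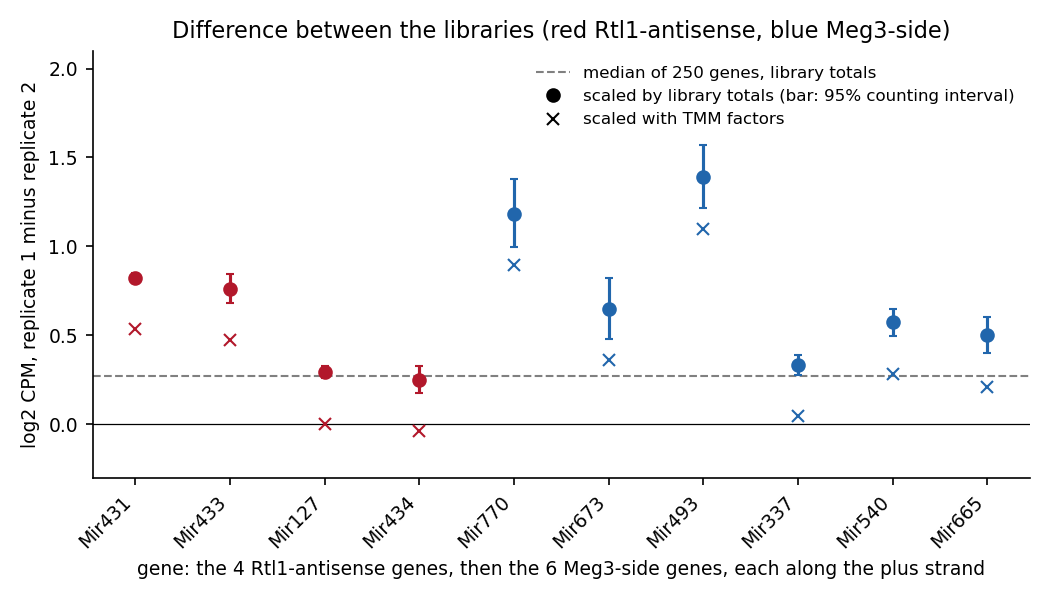
Log2 ratio of CPM, replicate 1 minus replicate 2, for the 4 Rtl1-antisense genes and then the 6 Meg3-side genes. Circles are scaled by library totals with 95% counting intervals, crosses by TMM factors, and the dashed line at 0.27 is the median of 250 genes. All circles lie above 0, and Mir434 is at -0.038 with TMM factors. Per read of the whole library, not drawn, Mir127, Mir337 and Mir434 are also below 0.

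**Figure D4:**
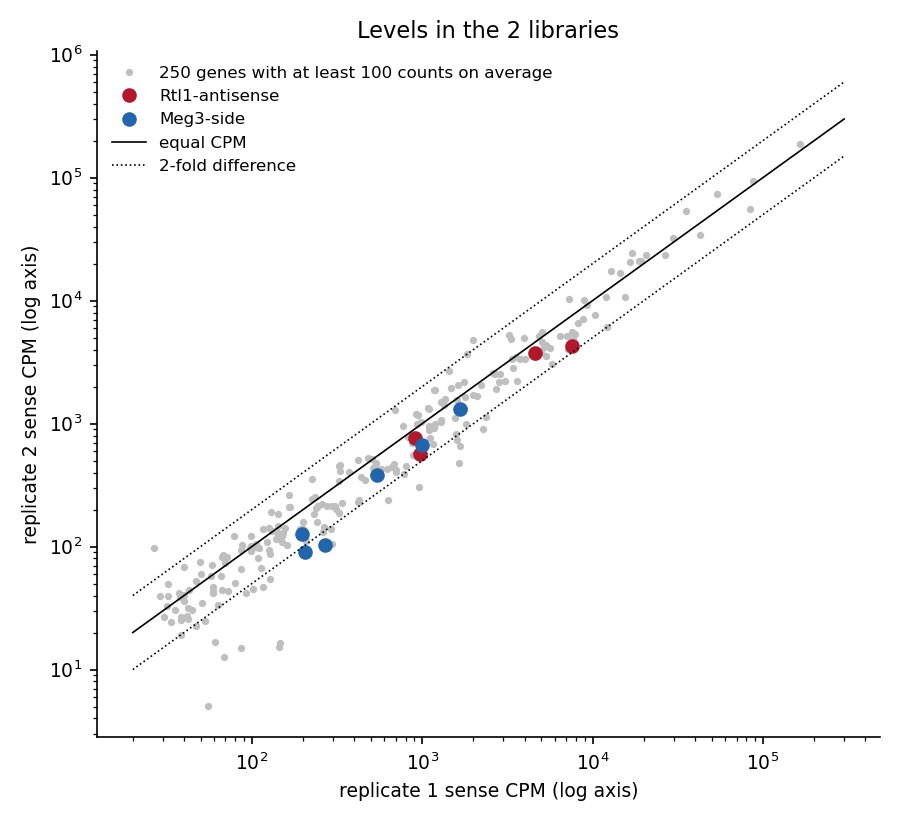
Sense CPM in replicate 1 (x axis) and replicate 2 (y axis) on log axes for the 250 genes whose mean count reached 100, in grey, with the Rtl1-antisense genes in red and the Meg3-side genes in blue. The solid line marks equal CPM and the dotted lines a 2-fold difference, outside which Mir493 and Mir770 lie.

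The 3 genes outside the 10 that follow came closest to Mir431, the most abundant member, in level over the 2 libraries. Mir1983 on chromosome 13 differed from it by at most 0.080 on the log2 scale, at 7220 CPM in replicate 1 and 4040 in replicate 2. Mir342, on chromosome 12 but outside the region, differed by at most 0.19 and Mir744 on chromosome 11 by at most 0.28. With 2 libraries, this likeness is one of level.

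The neighbouring miRNA genes of the region give the setting of these levels. Between Mir665 and Mir431 lie Mir3070a and Mir3070b, which had 13 and 1 sense counts in replicate 1 and 5 and 0 in replicate 2. They share the mature sequence of their 5′ arm, and reads that match both were counted at neither, so these counts are uncertain. Mir432, just past Mir434 and also opposite the Rtl1 coding sequence, had 0 counts in both libraries. For counting error alone, this leaves room for as much as 0.838 CPM (replicate 1) or 0.839 CPM (replicate 2), the value of 3 counts. Further on, Mir341 had 1138 CPM in replicate 1 and 915 in replicate 2, and Mir370 had 664 and 445 CPM, levels within the range of the 10 genes. Of the 7 analysed genes on the list of other proximal genes, 4 were detected, and the list held 0.176% ± 0.0359 of the sense counts (SD, n = 2). Among them, the identifier that GENCODE M21 names Mir3071 had 684 and 499 counts and lies within the span of the Rtl1 coding sequence. Its hairpin overlaps that of Mir136 on the opposite strand, which was not analysed here. The strand of this identifier in GENCODE M4, the annotation used for counting, could not be checked. The counts were therefore not assigned to either of the pair.

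Set against the distal cluster from Mir379 to Mir410, the 10 proximal genes held fewer counts in sum but had a higher median per gene. The 10 genes had 64065 sense counts in replicate 1 and 43041 in replicate 2, and the 34 analysed distal genes had 158415 and 113250. The log2 ratio of the sums was -1.31 (-1.32 to -1.29) in replicate 1 and -1.40 (-1.41 to -1.38) in replicate 2, so the 10 genes made up 28.8% and 27.5% of both sets. The median gene had 799 CPM among the 10 and 249 CPM among the 34, of which 30 were detected. Mir487b at 7403 ± 1202 CPM, Mir411 at 6600.5 ± 1803 CPM and Mir369 at 4856 ± 1066 CPM (SD, n = 2) led the distal genes, and Mir431 lay between Mir411 and Mir369. The distal genes also had higher CPM in replicate 1, in 28 of the 29 whose mean count reached 100, with a median log2 ratio of 0.55. Of the 40 listed distal genes, 6 are not included, so the distal sum is not that of the whole cluster.

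Reads on the strand opposite to the 10 genes were almost absent. Antisense counts were 0 in both libraries for 9 of the 10, including each Rtl1-antisense gene, whose opposite strand carries the Rtl1 coding sequence. These are counts of small-RNA reads at the miRNA genes, so the level of the Rtl1 mRNA was not measured. Mir337 had 9 antisense counts in replicate 1 and 8 in replicate 2, beside 5956 and 4716 sense counts. With counts of both strands together, the log2 ratio of the sides was 1.82, as with sense counts.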

How the data were processed

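Small-RNA libraries of limb tissue, 2 biological replicates of 1 group, were analysed. The deposited tables hold raw counts of reads per miRNA gene, not normalized, made by the authors from 1 alignment per library to mm10 with the GENCODE M4 annotation, per the readme texts deposited with the samples. For the aligner, the counting program and adapter trimming, no names or versions were given in the sources used here. Judged by its values, a table has 1 column each for both strands, sense reads and antisense reads, plus 4 rows of reads given to no gene (64.4% of reads in replicate 1 and 50.5% in replicate 2), which were left out of the totals. The layout is that of counting uniquely placed reads, so sequences with several genomic copies are undercounted.

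Symbols and coordinates (1-based) come from GENCODE M21 on GRCm38, the same build. By identifier, 1894 genes matched and 79 did not. Sequences come from RefSeq on GRCm38.p6, and Rtl1 sites from GENCODE M21 transcripts. CPM are sense counts per 1000000 sense counts in genes. Log2 values between libraries carry a prior count of 1, and intervals are exact binomial at 95%. Scaling was by totals, with edgeR TMM factors and DESeq2 size factors as alternatives. The ratio and dispersion steps were tested on simulated data. The 10 genes were fixed by their names, and every other gene named is a marker, one of the 3 closest in level, a seed partner, one of the 3 most abundant distal genes, or a proximal neighbour named after its values were seen. The members and lists were chosen with earlier results of these data known. Tools were Python 3.11.15 with scipy 1.17.1, pandas 2.3.3 and numpy 2.4.6, and R 4.3.3 with DESeq2 1.42.0 and edgeR 4.0.16.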

Additional observations from a re-analysis of the deposited data

Results flagged for a closer look

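Counts on the strand opposite to Mir337, outside the sense measurement, exceeded the 3 counts that a count of 0 allows: 9 in replicate 1 and 8 in replicate 2. The other 9 genes had 0 antisense counts in both libraries. Mir3544, an annotated miRNA gene on the minus strand, overlaps this hairpin and was not analysed here. The sense counts at the same gene were 5956 and 4716.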

How the results depend on the processing

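The number of detected genes among the 10, their share of the sense counts and the higher sum of the Rtl1-antisense genes kept their direction when either library was left out: the log2 ratio of the sides ran from 1.79 to 1.85 and the share from 1.20% to 1.79%. That log2 ratio was 2.70 by the median log2 CPM of each side, 2.46 by the mean log2 CPM (2.45 with a prior count of 5) and 1.71 without the most abundant gene of each side. Of the alternatives added after seeing the data, it was 2.05 without Mir770, Mir673 and Mir493 and 2.41 by the mean CPM per gene. Both were bound to exceed the ratio of the sums. The first takes counts from the Meg3 side only, and the second divides the sums by 4 and by 6 genes. Without Mir431 and Mir127 the log2 ratio of the sides turned to -1.04 as a sum of 2 genes against 6. Per gene, against all 6 Meg3-side genes, it stayed positive, at 0.55 by mean CPM and 1.14 by mean log2 CPM. The summed level of 14961 CPM was 6164 per 1000000 when all reads of a library were the denominator, since that total includes reads given to no gene. The median log2 ratio between the libraries was 0.32 with TMM and 0.33 with DESeq2 size factors in place of 0.61, and Mir434 turned to -0.038 and -0.025. With all reads of a library as the denominator, added after seeing the data, that median was 0.13, and Mir127, Mir337 and Mir434 turned to -0.19, -0.14 and -0.23. Genes over 2-fold between the libraries numbered 54 of 360 with at least 10 counts on average and 206 of 703 with at least 1 count in either library, in place of 27 of 250. No paired analysis was possible because there was 1 group. Depth limits the genes near Meg3 most, where the lowest count was 322.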
